A study of Homo sapiens with 10 samples.

Results

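The 8 genes described here encode proteins that bind messenger RNA carrying m6A (N6-methyladenosine, a methylated adenosine within the transcript), the readers of that mark. They were chosen by name as the YTH family (YTHDC1, YTHDC2, YTHDF1, YTHDF2 and YTHDF3) and the IGF2BP family (IGF2BP1, IGF2BP2 and IGF2BP3). All 8 were found by Ensembl identifier among 63187 genes of a read count table, and all 8 were among the 17290 that passed the filter on low counts. Their transcripts were followed by RNA-seq in the human osteosarcoma line U2OS, with 3 groups of 2 libraries. The groups were heat-shocked cells with YTHDC1 knocked down, heat-shocked cells with a control reagent and unheated cells with that control reagent. Titles of the samples call the reagents sh and their descriptions call them si, so the kind of knockdown is uncertain. All samples, the heat-shocked ones included, are labelled with a culture temperature of 37 °C. How hot and how long the heat shock was is not stated in the labels, and no unheated knockdown cells are among the samples. The series also holds 4 methylated RNA immunoprecipitation libraries of wild-type U2OS cells, 2 inputs and 2 precipitates, whose m6A signal was not analysed here.

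YTH proteins hold the methylated base in an aromatic pocket of the YTH domain. YTHDC1 is nuclear and acts in splicing and export of methylated transcripts, YTHDC2 is an RNA helicase best known from germ cells, and the YTHDF proteins are cytoplasmic and linked to decay and translation. The IGF2BP proteins bind RNA through KH domains and are known for stabilizing their client transcripts. IGF2BP1 and IGF2BP3 are oncofetal genes, active in embryos and tumours, whereas IGF2BP2 is widely active in adult tissue. YTHDF2 protein is also known, from other cell lines, to enter the nucleus under heat stress. The comparisons ask how heat shock and the loss of YTHDC1 changed the transcripts of these readers.

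Promoter windows are printed for the readers whose transcripts were called both in heat shock and in knockdown cells against unheated cells with the same sign (YTHDC2, YTHDF2) and for the targeted gene YTHDC1. Each runs from 250 bases before to 50 after the gene start, 5′ to 3′ on the gene's strand (RefSeq, GRCh38.p14). Capitals mark motif matches. They are GAANNTTC or TTCNNGAA, paired units of the heat shock element, or TGACGTCA, the cyclic AMP response element. The last was added after the sequences had been seen. Each motif is its own reverse complement, so that a search of 1 strand covers both, and the heat shock pair can overlap each other.
YTHDC1, chr4:68350041-68350340, minus strand: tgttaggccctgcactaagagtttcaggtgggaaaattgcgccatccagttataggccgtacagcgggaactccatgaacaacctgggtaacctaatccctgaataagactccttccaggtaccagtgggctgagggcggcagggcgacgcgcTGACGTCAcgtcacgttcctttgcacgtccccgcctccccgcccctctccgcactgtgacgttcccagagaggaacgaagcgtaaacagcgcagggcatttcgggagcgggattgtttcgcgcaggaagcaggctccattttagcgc
YTHDC2, chr5:113513444-113513743, plus strand: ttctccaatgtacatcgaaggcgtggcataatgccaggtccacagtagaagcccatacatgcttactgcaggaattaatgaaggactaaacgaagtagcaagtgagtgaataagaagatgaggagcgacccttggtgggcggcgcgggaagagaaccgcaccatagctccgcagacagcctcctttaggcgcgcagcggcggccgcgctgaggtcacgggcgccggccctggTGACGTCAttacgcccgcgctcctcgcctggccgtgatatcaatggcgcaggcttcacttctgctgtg
YTHDF2, chr1:28736374-28736673, plus strand: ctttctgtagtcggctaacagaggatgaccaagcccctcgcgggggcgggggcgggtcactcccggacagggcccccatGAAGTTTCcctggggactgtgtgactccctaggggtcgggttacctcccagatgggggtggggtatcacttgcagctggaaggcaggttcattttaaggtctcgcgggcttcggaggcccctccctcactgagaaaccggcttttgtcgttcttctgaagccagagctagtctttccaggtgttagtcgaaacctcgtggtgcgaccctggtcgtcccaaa

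Windows were searched for 6 of the 8 readers, 8 windows in all. None was searched for YTHDF3 and IGF2BP1. Any window on chromosome 8, where YTHDF3 lies, was left out of the search of named genes. Of those 6 genes 1, YTHDF2, held a heat shock pair, GAAGTTTC starting at position -171, and it lay in 1 of that gene's 2 windows. TGACGTCA was found in 2 of the 6, at position -97 in YTHDC1 and at position -18 in YTHDC2. Over 35116 windows of 300 bases GAANNTTC was present in 6.77%, TTCNNGAA in 7.74% and TGACGTCA in 1.85%. Among 5 heat-induced chaperone genes used as a check (HSPA1A, HSPA1B, HSPA6, DNAJB1 and HSPH1), 4 held a heat shock pair in at least 1 window. DNAJB1 had more than 1 window, and 1 of them held no match. These counts are per gene, whereas the percentages are per window. A match describes the letters and shows no binding.

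The libraries held 13252370 to 15500743 counts, of which the readers took 0.0546% to 0.0766%. Levels are CPM after TMM scaling of the library sizes, and a value after ± is the SD of a pair of libraries unless it is called an SE or follows a log2 fold change, where it is the SE. Separate cultures are not stated in the labels. Each p-value thus rests on the spread of library pairs that may be technical repeats, and that spread is partly borrowed from other genes. The 5 chaperone genes summed to 13590 to 14100 CPM in knockdown cells and 13530 to 14200 CPM in heat-shocked control cells, against 482 to 484 CPM in unheated control cells. Within that sum HSPH1 fell in the knockdown to 0.666 of the heat-shocked control level (log2 fold change -0.59, edgeR adjusted p = 1.02e-10), HSPA1A and DNAJB1 each rose by 0.18, and HSPA1B and HSPA6 were not called. Of 8 osteoblast lineage markers, COL1A1 (at least 1322 CPM), SPARC (at least 850.5 CPM) and RUNX2 (at least 13.5 CPM) were well detected, ALPL (1.74 to 3.34 CPM) and COL1A2 (0.0717 to 2.25 CPM) were low, and SP7, BGLAP and IBSP were at or near 0. In the knockdown 4 of the 5 tested osteoblast markers were called, where 54.5% of all tested genes were. COL1A2 was higher by 2.56, RUNX2 by 0.63 and COL1A1 by 0.42 on the log2 scale, and SPARC was lower at -0.51. COL1A2 passed the count filter only through the knockdown libraries (2.25 and 2.23 CPM, against 0.07 to 0.69 CPM in control libraries). That it was tested at all thus depended on its rise. With heat RUNX2 alone of the 5 was called, at -0.63, where 43.9% of all tested genes were called. Of 9 markers of other cell types, CD3E and HBB were at 0 in every library. The summed level of the 9 was 26.2 to 27.2 CPM in knockdown cells, 8.17 to 9.84 CPM in heat-shocked control cells and 9.78 to 10.7 CPM in unheated control cells, and 4 of the 9 were tested. In the knockdown the epithelial genes EPCAM and CDH1 rose by 1.90 and 1.84 on the log2 scale. KRT5 rose as well, at 0.69 to 1.81 CPM over all libraries. PECAM1 had no reads there and only 0.58 to 0.85 CPM in control libraries, so both genes were near the floor. The part of both marker lists in the results below was not tested. In bulk RNA, fewer cells of a type and less RNA per cell cannot be told apart.

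In heat-shocked control cells 4 of the 8 readers rose and 1 fell against unheated control cells. Those that rose were YTHDC1, YTHDC2, YTHDF3 and IGF2BP1, and the one that fell was YTHDF2. Over all tested genes 43.9% were called in that comparison, 20.6% higher and 23.3% lower (edgeR quasi-likelihood test, Benjamini-Hochberg adjusted p under 0.05). The median log2 fold change was 0.16 over the 8 readers and -0.03 over all genes. With library size alone as the scaling, 2932 genes were higher and 5092 lower, in place of 3559 and 4033. Of the 8 readers 0 rose and 4 fell in knockdown cells against heat-shocked control cells, where 54.5% of all genes were called, 27.4% higher and 27.2% lower. The 4 were YTHDC1 itself, YTHDF3, IGF2BP1 and IGF2BP2. The fall of YTHDC1 was set by its being the target, so its place in the count is no result about the readers. Both comparisons share the heat-shocked control cells, so their values are set side by side without a test of likeness.

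**Figure D1:**
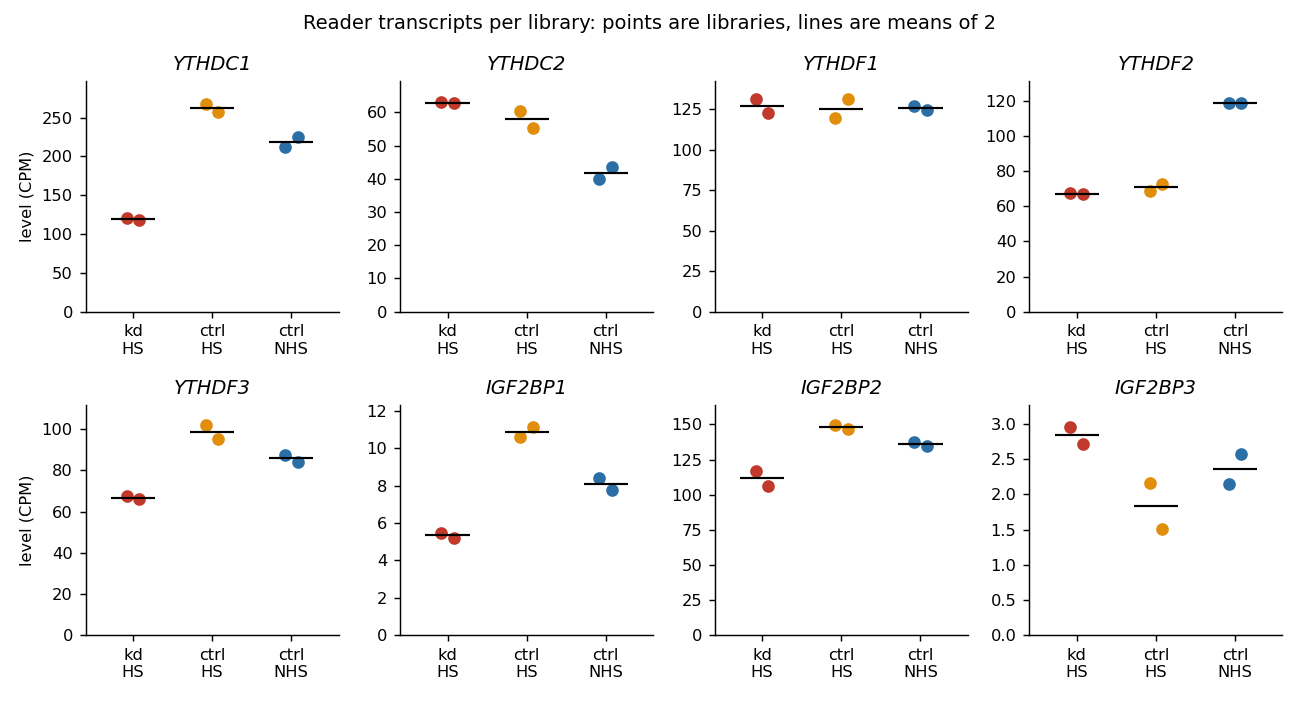
Level of each reader transcript in CPM (vertical axes, from 0) in each library (points) with the mean of 2 libraries (lines), for YTHDC1 knockdown heat-shocked (kd HS), control heat-shocked (ctrl HS) and control unheated (ctrl NHS) cells. YTHDF2 is near 70 CPM in all 4 heat-shocked libraries and near 119 CPM in the 2 unheated ones, while YTHDF1 lies between 119 and 131 CPM in all 6.

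YTHDC1 (ENSG00000083896, chromosome 4, positions 68310387 to 68350090 of GRCh38) is the targeted gene. It had 121 and 118 CPM in knockdown cells, 268 and 258 CPM in heat-shocked control cells, and 213 and 225 CPM in unheated control cells. The groups did not overlap, and both knockdown libraries lay below every control library. The knockdown thus left 45.4% of the heat-shocked control level, which checks the labels. Against unheated control cells it left 54.6% (-0.87 ± 0.05 on the log2 scale with its SE, 2 libraries per group, edgeR adjusted p = 1.42e-13). Heat shock raised YTHDC1 in control cells by 0.27 ± 0.05 on the log2 scale (edgeR adjusted p = 4.44e-05), a rise exceeded by 24.0% of all tested genes.

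YTHDC2 (ENSG00000047188, chromosome 5, 113513694 to 113595284), the helicase of the family, had 63.1 and 62.8 CPM in knockdown cells, 60.5 and 55.3 CPM in heat-shocked control cells, and 40.0 and 43.4 CPM in unheated control cells. All 4 heat-shocked libraries were above both unheated ones. It rose 1.39-fold in heat-shocked control cells (log2 fold change 0.47 ± 0.07, edgeR adjusted p = 3.95e-06). Between knockdown cells and heat-shocked control cells it was not called (0.12 ± 0.07, 95% interval -0.01 to 0.26, edgeR adjusted p = 0.116). Against unheated control cells the knockdown cells were 1.51-fold higher (edgeR adjusted p = 4.00e-08). Scaled by gene length, YTHDC1 stood 2.94 and 2.88 times above YTHDC2 in knockdown cells, 6.80 and 7.17 times in heat-shocked control cells, and 8.17 and 7.94 times in unheated control cells.

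The 3 YTHDF genes, whose proteins are close paralogs, moved in different ways. YTHDF2 (ENSG00000198492, chromosome 1, 28736624 to 28769775), which brings the CCR4-NOT deadenylase to methylated transcripts, had 67.4 and 67.2 CPM in knockdown cells, 68.8 and 72.8 CPM in heat-shocked control cells, and 119 CPM in both unheated control cells. The 4 heat-shocked libraries lay close together and far below the unheated pair. YTHDF2 fell in heat-shocked control cells to 59.6% of the unheated level (log2 fold change -0.75 ± 0.05, edgeR adjusted p = 3.38e-11). Only 7.95% of all tested genes had a lower log2 fold change. Knockdown cells stood at 56.6% of the unheated level (edgeR adjusted p = 2.43e-12). Between knockdown cells and heat-shocked control cells YTHDF2 was not called (log2 fold change -0.07, 95% interval -0.19 to 0.04, edgeR adjusted p = 0.281).

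YTHDF1 (ENSG00000149658, chromosome 20, 63195429 to 63216131), linked to translation of methylated transcripts, had 131 and 123 CPM in knockdown cells, 119 and 131 CPM in heat-shocked control cells, and 127 and 125 CPM in unheated control cells. The 3 groups overlapped. Its log2 fold change was -0.01 in heat shock (95% interval -0.12 to 0.10, edgeR adjusted p = 0.936) and 0.02 in the knockdown (-0.09 to 0.13, edgeR adjusted p = 0.773).

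YTHDF3 (ENSG00000185728, chromosome 8, 63168553 to 63212788), which acts with its paralogs in translation and decay, had 67.6 and 66.2 CPM in knockdown cells, 102 and 95.3 CPM in heat-shocked control cells, and 87.5 and 84.4 CPM in unheated control cells. The knockdown libraries were the lowest and the heat-shocked control cells the highest, with no overlap. In the knockdown YTHDF3 fell to 67.9% of heat-shocked control cells (log2 fold change -0.56 ± 0.06, edgeR adjusted p = 1.08e-08) and lay at 77.8% of unheated control cells (edgeR adjusted p = 5.96e-06). Its rise with heat was small (0.20 ± 0.05, edgeR adjusted p = 0.00465). That call was lost with library size alone (edgeR adjusted p = 0.0587), with the DESeq2 Wald test (DESeq2 adjusted p = 0.0552), and when heat-shocked control replicate 1 was left out (edgeR adjusted p = 0.0968) or unheated replicate 2 was (edgeR adjusted p = 0.0904).

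Within each library the balance of the YTHDF paralogs could be read without scaling between libraries. Per kilobase of gene length, YTHDF2 was 0.441 and 0.470 of YTHDF1 in knockdown cells, 0.496 and 0.477 in heat-shocked control cells, and 0.804 and 0.820 in unheated control cells. The share of YTHDF1 in the summed YTHDF level per kilobase was 58.5% and 57.1% in knockdown cells, 51.6% and 53.9% in heat-shocked control cells, and 46.2% and 46.0% in unheated control cells. YTHDF3 held 15.7% and 16% in knockdown cells, 22.9% and 20.4% in heat-shocked control cells, and 16.6% and 16.2% in unheated control cells. An exact two-sided permutation test of 2 libraries against 2 cannot give a p under 1 in 3, so these ratios are given without a test.

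**Figure D2:**
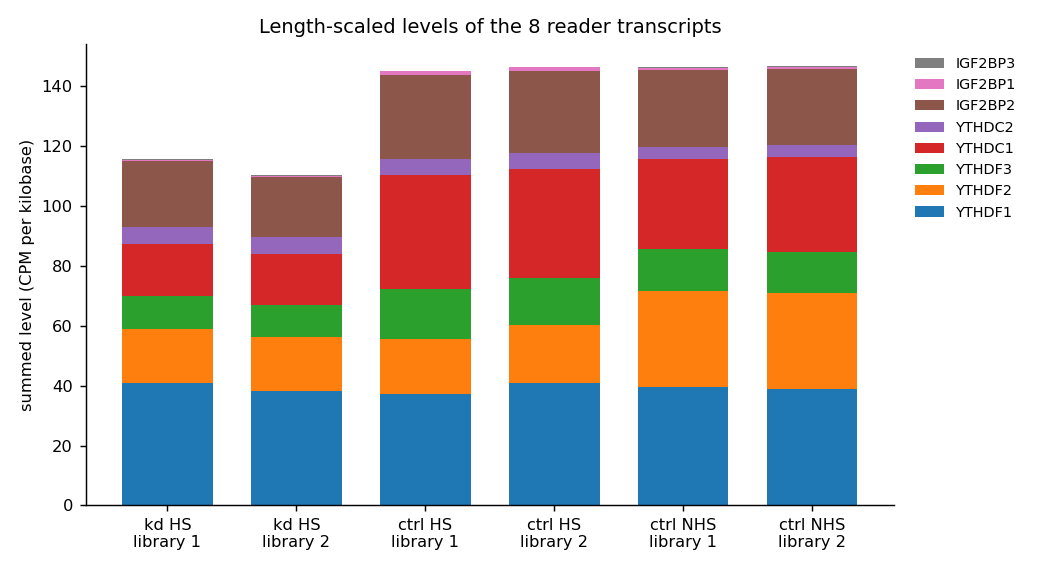
Stacked levels of the 8 reader transcripts in CPM per kilobase of deposited gene length (vertical axis, from 0) in each library; kd HS, ctrl HS and ctrl NHS are knockdown heat-shocked, control heat-shocked and control unheated cells. The sums are 116 and 110 in knockdown cells, against 145 to 147 in the 4 control libraries. They include the targeted YTHDC1, whose fall is part of that difference.

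IGF2BP2 (ENSG00000073792, chromosome 3, 185643130 to 185825042) was by far the most abundant of its family. It had 117 and 106 CPM in knockdown cells, 150 and 147 CPM in heat-shocked control cells, and 138 and 135 CPM in unheated control cells. Both knockdown libraries were below all 4 control libraries. It fell in the knockdown to 75.3% of heat-shocked control cells (log2 fold change -0.41 ± 0.05, edgeR adjusted p = 4.64e-07) and stood at 82.0% of unheated control cells (edgeR adjusted p = 4.45e-05). Its heat shock value of 0.12 ± 0.05 missed the threshold (95% interval 0.02 to 0.23, edgeR adjusted p = 0.0545). It was called in 5 of 15 alternative settings, among them RLE scaling (edgeR adjusted p = 0.0341) and the fit of only those groups (edgeR adjusted p = 0.00225).

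IGF2BP1 (ENSG00000159217, chromosome 17, 48996558 to 49056145), an oncofetal member, was low, with 75 to 155 reads per library. It had 5.49 and 5.22 CPM in knockdown cells, 10.6 and 11.1 CPM in heat-shocked control cells, and 8.39 and 7.77 CPM in unheated control cells. The 3 groups did not overlap, and the knockdown stood lowest. The knockdown left 49.3% of the heat-shocked control level (log2 fold change -1.02 ± 0.15, edgeR adjusted p = 2.83e-06), and 66.3% of the unheated level (edgeR adjusted p = 0.00159). With heat IGF2BP1 rose 1.34-fold (0.43 ± 0.14, edgeR adjusted p = 0.0127). That call was lost with the DESeq2 Wald test (DESeq2 adjusted p = 0.186) and when heat-shocked control replicate 2 was left out (edgeR adjusted p = 0.0816) or unheated replicate 2 was (edgeR adjusted p = 0.114).

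IGF2BP3 (ENSG00000136231, chromosome 7, 23310209 to 23470491), the other oncofetal member, had 42 and 39 reads in knockdown cells, 28 and 21 in heat-shocked control cells, and 34 and 40 in unheated control cells. Scaled, these were 2.95 and 2.71 CPM in knockdown cells, 2.15 and 1.51 CPM in heat-shocked control cells, and 2.14 and 2.57 CPM in unheated control cells. The knockdown libraries were the highest, and the control groups overlapped. Its log2 fold change of 0.64 ± 0.28 in the knockdown was not called (95% interval 0.07 to 1.21, edgeR adjusted p = 0.0548), except without heat-shocked control replicate 1, where it was 0.91 (edgeR adjusted p = 0.0397). The heat shock value of -0.37 was not called (95% interval -0.95 to 0.21, edgeR adjusted p = 0.304). The gene overlaps MALSU1 at its end, and no source used here gives the strand setting of the counts, so reads shared by the pair are uncertain.

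**Figure D3:**
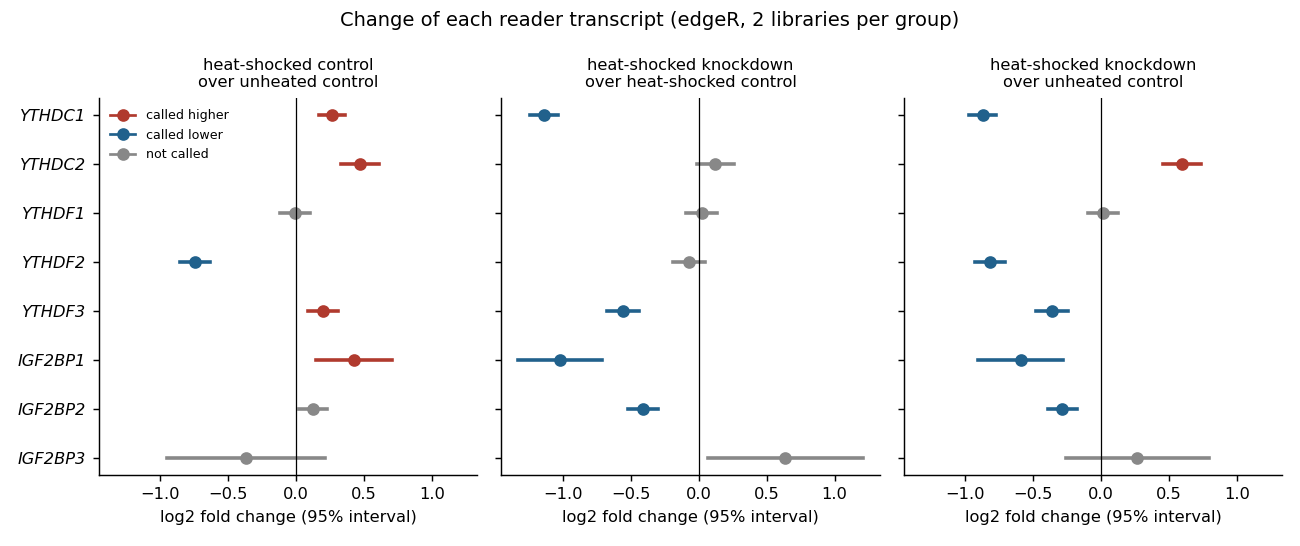
Log2 fold change of each reader with its 95% interval (horizontal axes) in 3 comparisons of 2 libraries each; red is called higher, blue called lower and grey not called. YTHDF2 is lower by 0.75 with heat and by 0.82 in knockdown cells against unheated control cells, and close to 0 between the heat-shocked groups, whereas YTHDF3, IGF2BP1 and IGF2BP2 are lower in both knockdown panels.

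With heat and knockdown together, 1 reader was higher and 5 lower than in unheated control cells, and 2 were not called. Over all genes 62.2% were called there, 31.1% higher and 31.1% lower. YTHDC2 was the one that was higher. The targeted YTHDC1, whose fall was set by the knockdown, was lower, as were YTHDF2, YTHDF3, IGF2BP1 and IGF2BP2. The median absolute log2 fold change of the readers was 0.48, against 0.44 over all genes. In heat shock the median was 0.32 for the readers and 0.28 for all genes, and in the knockdown 0.48 for the readers and 0.37 for all genes. Both medians with knockdown cells include the targeted YTHDC1, at -0.87 against unheated and -1.14 against heat-shocked control cells. They therefore do not show that the other readers moved more than genes at large.

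**Figure D4:**
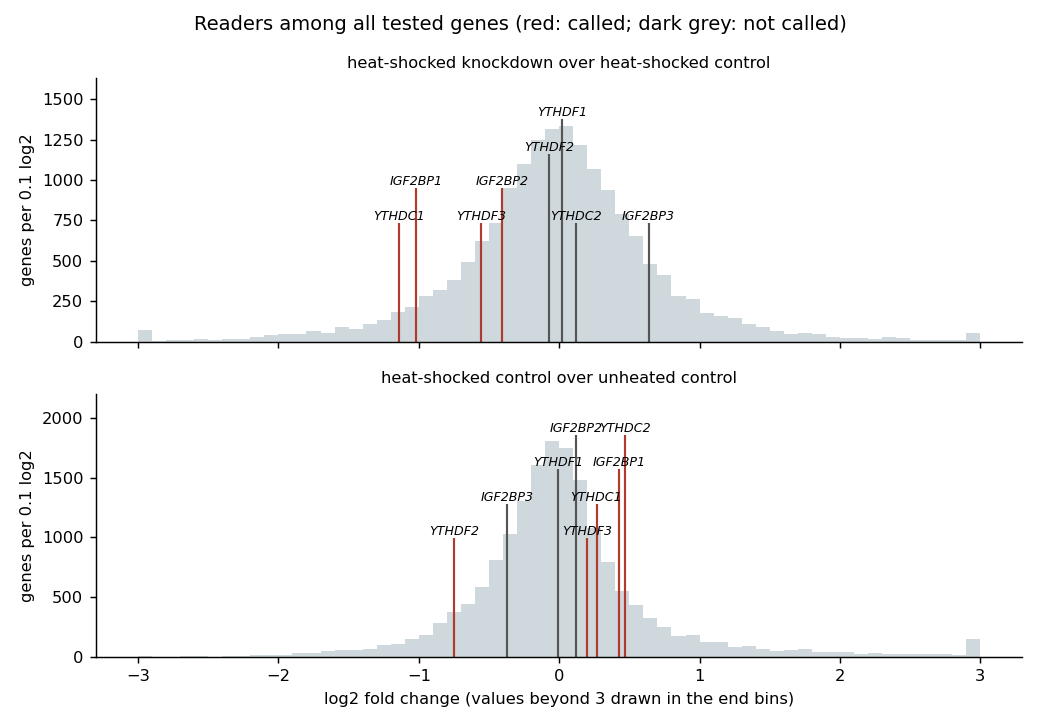
Distribution of log2 fold changes of the 17290 tested genes (horizontal axis; vertical axis, genes per bin of 0.1) with the 8 readers as lines, red where called. In the knockdown, YTHDC1 at -1.14 and IGF2BP1 at -1.02 lie in the lower tail, and in heat shock YTHDF2 at -0.75 does.

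Per kilobase of deposited gene length the readers spanned a wide range. In knockdown cells YTHDF1 led with 39.7 ± 1.85 CPM per kilobase, followed by IGF2BP2 (20.9 ± 1.42), YTHDF2 (18.0 ± 0.03), YTHDC1 (17.0 ± 0.32) and YTHDF3 (10.9 ± 0.16). In heat-shocked control cells the leaders were YTHDF1 (39.1 ± 2.6) and YTHDC1 (37.4 ± 0.98), whose libraries overlapped, then IGF2BP2 (27.8 ± 0.38), YTHDF2 (19 ± 0.76) and YTHDF3 (16 ± 0.75). In unheated control cells YTHDF1 (39.3 ± 0.50) was followed by YTHDF2 (31.9 ± 0.04) and YTHDC1 (31.1 ± 1.2), which overlapped, then IGF2BP2 (25.5 ± 0.38) and YTHDF3 (13.9 ± 0.36). YTHDC2 at 3.86 to 5.82, IGF2BP1 at 0.556 to 1.13 and IGF2BP3 at 0.214 to 0.332 CPM per kilobase (group means) kept the last places in that order in all 3 groups. Among all tested genes YTHDF1 stood at the 94.7th percentile of this level and IGF2BP3 at the 8.89th.

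The sum of the 8 readers was 116 and 110 CPM per kilobase in knockdown cells, 145 and 147 in heat-shocked control cells, and 147 in both unheated control cells. The targeted YTHDC1 made up 14.8% and 15.2% of it in knockdown cells, 26.2% and 25.0% in heat-shocked control cells, and 20.6% and 21.7% in unheated control cells. Its group means were 17.0, 37.4 and 31.1 CPM per kilobase in that order. Part of the lower sum in knockdown cells is thus the targeted gene itself. IGF2BP2 made up 95.4% to 96.0% of the IGF2BP level per kilobase in every library. The deposited length counts all exons of a gene, so isoform use can move these levels.

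For each reader the 3 genes of most similar pattern were taken among genes at a mean of 10 CPM or more, by the root mean square difference of log2(CPM + 0.5), centred on each gene's mean over the 6 libraries. YTHDC1 was nearest to COA1 (0.02), SSRP1 (0.03) and UHRF1 (0.04), which stood at log2 fold changes of -1.17, -1.10 and -1.16 in the knockdown. YTHDF2 was nearest to PLEKHG2, DIS3 and RRP1B, each at 0.04, which lay at -0.66, -0.79 and -0.78 in heat shock. YTHDF3 was nearest to MRPL19, NECTIN3 and MTRR, IGF2BP2 to COPS8, VBP1 and OPTN, and IGF2BP1 to EVA1A, HACD3 and ZNF282. YTHDC2 was nearest to MSRB3, TCF12 and EFL1, and YTHDF1 to PRKACA, GOT1 and DOCK9. For IGF2BP3, whose counts were lowest, the nearest were TANGO6, HARS1 and DPY19L2, at 0.04 to 0.08. These are likenesses over 6 libraries in 3 groups, out of 9923 or 9924 candidate genes, and carry no test.

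Of 22 genes through which the YTHDF proteins are known to act in decay, subunits of CCR4-NOT and of RNase P/MRP with RIDA, UPF1 and XRN1, 12 fell and 3 rose against heat-shocked control cells, where 27.2% of all genes were lower and 27.4% higher. The number that fell was 8 with the DESeq2 Wald test, 9 without knockdown replicate 2 and 10 without either replicate of heat-shocked control cells. Over all genes that DESeq2 test called 3270 of 18602 lower, in place of 4696 of 17290. Each list count below under another setting likewise has its own share over all genes, which the main shares do not replace. The median log2 fold change of the 22 was -0.21, against 0.00 for all genes. CNOT6, a deadenylase subunit, stood at 49.0 CPM in knockdown cells and 91.0 CPM in heat-shocked control cells (log2 fold change -0.89 ± 0.06, edgeR adjusted p = 1.07e-11). RIDA, which in human cells bridges YTHDF2 to RNase P/MRP, stood at 4.90 CPM in knockdown cells and 9.07 CPM in heat-shocked control cells (-0.89 ± 0.18, edgeR adjusted p = 2.19e-04). CNOT3 and the helicase UPF1 rose by 0.42 and 0.40. In heat shock 7 of the 22 rose and 7 fell, 63.6% called against 43.9% of all genes (20.6% higher and 23.3% lower), led by RPP14 at 0.85 and CNOT6L at 0.69 and by CNOT2 at -0.95 and RPP38 at -0.56. The number that rose with heat was 4 with the DESeq2 Wald test and with library size alone. Over all genes 2412 of 17927 and 2932 of 17290 were higher there, in place of 3559 of 17290. Some fits with a library left out also gave fewer.

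Of 10 partners of YTHDC1 in splicing, export and chromatin, 2 rose and 6 fell with heat, 80% called against 43.9% of all genes. The splicing factor SRSF3, which YTHDC1 recruits, fell by 0.39 and the histone methyltransferase SETDB1 by 0.36, while SRSF1 was at 0.27 and the export receptor NXF1 at 0.18. The number higher was 1 with library size alone, where 2932 of 17290 genes were higher, and with DESeq2, where 2412 of 17927 were. Some fits with a library left out also gave fewer. The number lower was 4 in place of 6 with DESeq2, which called 2365 of 17927 genes lower with heat. It was also smaller in some fits with a library left out. In the knockdown 1 rose and 2 fell, 30% of the 10 against 54.5% of all genes. SAFB stood at 0.32, SRSF1 at -0.40 and SRSF10, whose RNA binding YTHDC1 opposes, at -0.16. SRSF3 at -0.02 and NXF1 at -0.06 were not called (edgeR adjusted p = 0.785 and 0.376).

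Of 12 IGF2BP cofactors and client transcripts, 5 rose and 4 fell with heat (75% called, against 43.9% of all genes), and 3 rose and 5 fell in the knockdown (66.7% called, against 54.5% of all genes). H19, a noncoding RNA bound by IGF2BP1, stood at 3.15 CPM in knockdown cells and 10.4 CPM in heat-shocked control cells (log2 fold change -1.72 ± 0.19, edgeR adjusted p = 6.87e-08). HMGA1, a chromatin protein, rose by 0.51 in the knockdown, and IGF2, the transcript that gave the family its name, rose by 0.51 there and by 0.74 with heat, at under 6 CPM. LIN28B, an RNA-binding protein, fell by 0.96 with heat, and SYNCRIP by 0.31. MATR3 was at 1.47 with heat and -0.91 in the knockdown, at group means of 2.04 to 5.67 CPM. Its reads are split over 2 identifiers with 303 and 20 counts over the 6 libraries, so its values are uncertain. It is nevertheless counted among the 5 that rose with heat and the 5 that fell in the knockdown. The number that rose with heat was 3 without heat-shocked control replicate 2 or unheated replicate 1.

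Of 10 other RNA-binding proteins described as sensitive to m6A, 3 rose and 2 fell with heat (50% called), and 1 rose and 5 fell in the knockdown (60% called), both near the 43.9% and 54.5% over all genes. FXR1, of the fragile X family, rose by 0.63 and HNRNPC by 0.23 with heat, and RBMX fell by 0.27 and PRRC2A by 0.19. With library size alone 4 of the 10 were lower with heat, where 5092 of 17290 genes were, in place of 4033. In the knockdown FMR1, of the same fragile X family, fell by 0.70 and HNRNPC by 0.38, while FXR2 rose by 0.47. The number higher in the knockdown was 2 with library size alone, where 4908 of 17290 genes were higher, in place of 4729. A fit with a library left out also gave more. Of 11 writers and erasers of m6A, 4 rose and 1 fell with heat (45.5% called), and 3 rose and 3 fell in the knockdown (54.5% called), shares close to those over all genes. RBM15B, of the methyltransferase complex, fell by 1.00 with heat and rose by 0.78 in the knockdown. METTL16 and RBM15 rose with heat by 0.36 and 0.33, RBM15 rose by 0.54 in the knockdown, and the demethylase ALKBH5 and the writer subunit ZC3H13 fell there by 0.68 and 0.44. With library size alone 2 of the 11 were lower with heat, beside the same 5092 of 17290 genes.

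In knockdown cells against unheated control cells, where 62.2% of all genes were called, 31.1% in each direction, 12 of the 22 decay effectors were lower and 5 higher (77.3% called), with CNOT2 at -0.95, CNOT11 at -0.78, RPP14 at 0.73 and CNOT6L at 0.44. Without unheated replicate 1 the number higher was 3. Of the 10 YTHDC1 partners 5 were lower, SRSF3 at -0.40 and SETDB1 at -0.37 among them, and 1, NXF1 at 0.13, was higher (edgeR adjusted p = 0.036), so that 60% were called, a share near that of all genes. The number higher was 2 with RLE scaling and with the stricter filter, and 0 with library size alone, with no filter, with DESeq2, and without either replicate of heat-shocked or of unheated control cells. Of the 12 IGF2BP cofactors and clients 75% were called. Of these 4 were higher, led by IGF2 at 1.26 and HMGA1 at 0.58, and 5 were lower, led by LIN28B at -1.66 and followed by H19, at 3.15 CPM in knockdown cells and 6.30 CPM in unheated control cells. Of the 10 other m6A-sensitive proteins 80% were called. Of these 2 were higher, FXR1 at 0.65 and FXR2 at 0.48, and 6 were lower, led by FMR1 at -0.67 and RBMX at -0.35. Of the 11 writers and erasers 72.7% were called. Of these 3 were higher, led by RBM15 at 0.86 and METTL16 at 0.75, and 5 were lower (3 with DESeq2), led by ZC3H13 at -0.46 and ALKBH5 at -0.44.

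**Figure D5:**
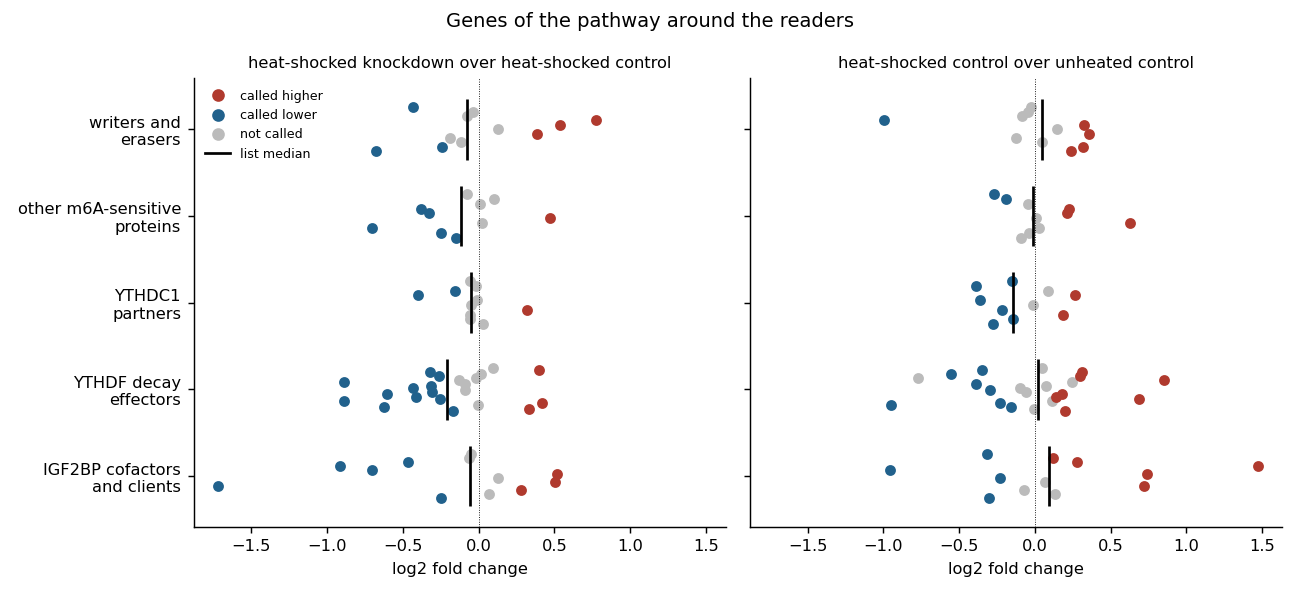
Log2 fold changes (horizontal axes) of the genes in 5 lists around the readers (rows), for knockdown over heat-shocked control cells and for heat-shocked over unheated control cells; points are genes, red called higher, blue called lower, grey not called, and black lines are list medians. The median of the YTHDF decay effectors is -0.21 in the knockdown and 0.02 in heat shock.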

How the data were processed

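Total RNA of 6 U2OS libraries was sequenced. The authors deposited raw read counts, whole numbers for each Ensembl gene. The submitters' processing notes name HISAT2 2.2.1, featureCounts 2.0.2 and GRCh38 among other tools, without roles. No source used here gives the strand setting or the annotation. Symbols were paired with 62666 of 63187 identifiers. Total counts (13252370 to 15500743) set the precision of low genes.

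Counts were tested with edgeR 4.0.16 in R 4.3.3 (TMM scaling, filterByExpr with a minimum count of 10, robust quasi-likelihood F test, Benjamini-Hochberg over 17290 genes, threshold 0.05). All 6 libraries entered 1 fit with 3 residual degrees of freedom. The test adds prior degrees of freedom borrowed from other genes (median 20.2), and the p-values and intervals rest mostly on these. SE is the log2 fold change divided by the root of F, and intervals are 95%. Gene lengths, in bases per the file headers, served only for levels per kilobase. Alternatives used DESeq2 1.42.0, limma 3.58.1, other scalings and filters, left-out libraries and a replicate block.

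Replicates differed by more than sampling noise (chi-square per gene 3.55 in knockdown cells, 2.69 in heat-shocked and 1.54 in unheated control cells), so each counted once. The fit took the same spread for all 3 groups, although these values differed between them. The effect of that on the p-values was not tested. The members and lists were chosen with earlier results of these data known. Named are all 8 members, the up to 2 largest called rises and falls per pathway list and comparison, and the 3 genes nearest in pattern. Values of SRSF3 and NXF1 in the knockdown were added after they were seen.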

Additional observations from a re-analysis of the deposited data

How the results depend on the processing

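Over 15 alternatives no called reader changed sign, and all 4 calls in the knockdown and all 6 against unheated control cells held. In heat shock the calls of YTHDC1, YTHDC2 and YTHDF2 held in all 15. The number of readers called in heat shock was 3 with the DESeq2 Wald test, which called 4777 genes in place of 7592, and 3 to 6 with a library left out, against 5. The lowest was without unheated replicate 2. The cause was not tested. With a library left out, the lone library of its group is assumed to vary like the other groups. With library size alone 36.5% rather than 46.9% of the heat shock calls were higher. DESeq2 called 2412 of 17927 genes higher with heat, in place of 3559 of 17290. Each list count under an alternative setting has its own share over all genes, so the shares given in the results are not its background. The YTHDF1 log2 fold change with heat ran from -0.08 to 0.06. Replicate numbers do not pair the libraries by the labels, and same-numbered libraries did not deviate together (correlations of -0.02 to 0.01). The replicate block called 5 readers and 7494 genes in heat shock, and 9372 genes in the knockdown. Pseudocount 1 kept all 3 nearest genes for 6 readers and 2 of 3 for IGF2BP1 and IGF2BP3. IGF2BP3, at 21 to 42 reads, is limited by depth.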

Other observations

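5 further rows of the table carry names derived from the readers. YTHDF3-DT (ENSG00000270673), the divergent noncoding transcript beside the start of YTHDF3, had 26 and 20 reads in knockdown cells, 5 and 10 in heat-shocked control cells, and 8 and 11 in unheated control cells. It was higher in the knockdown against heat-shocked control cells (1.52 ± 0.43 on the log2 scale with its SE, 2 libraries per group, edgeR adjusted p = 0.00466), in which YTHDF3 itself was lower by 0.56. Both knockdown libraries lay above all 4 control libraries, at low counts. The pseudogene YTHDF2P1 had 7 and 6 reads in knockdown cells, 3 in both heat-shocked control cells and 11 in both unheated control cells, with unheated cells highest as for YTHDF2. Reads of YTHDF2 that map to this copy cannot be told apart from reads of its own. YTHDF1P1 and YTHDF3P1 had 0 reads in every library, and the antisense RNA IGF2BP2-AS1 had 1 read in all 6 together.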
